A study of Mus musculus with 3 samples.

Results

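The neurotrophins are secreted growth factors of neurons, and the genes described here are those of 2 of these ligands, of their receptors and of the sorting receptors that handle them. The 8 genes were chosen by name: the ligand genes Bdnf and Ntf3, the Trk receptor genes Ntrk2 and Ntrk3, the p75 receptor gene Ngfr, and the sortilin family genes Sort1, Sorcs1 and Sorcs2. All 8 were found among the 32531 gene symbols of the deposited tables. The mice were adults of the line Slc17a6-TRAP JX883, without treatment, and 3 RNA-seq libraries of ribosome-bound RNA were made from their prefrontal cortex, each from 3 pooled animals. In this line an EGFP-tagged ribosomal protein L10a is made under control of Slc17a6, the gene of the vesicular glutamate transporter VGLUT2, and RNA is collected on anti-EGFP beads (translating ribosome affinity purification, TRAP). All 3 libraries belong to 1 group, with no input RNA and no second group analysed here. A level thus says how much of a message the bead-bound RNA held, not whether it was enriched over the tissue.

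Neurotrophins are made as precursors that are cleaved to a mature form. Mature BDNF and NT-4 act through TrkB, the product of Ntrk2, and NT-3 acts mainly through TrkC, the product of Ntrk3. The p75 receptor binds all neurotrophins, and it binds the uncleaved precursors together with sortilin or a related receptor. In the cortex, BDNF is made chiefly by excitatory neurons and its gene is switched on by activity. TrkB has a form with a kinase domain, found in neurons, and a truncated form without it, which is abundant in astrocytes.

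The libraries held 12592174, 8964137 and 12648577 counts over named genes in replicates 1, 2 and 3. Slc17a6 itself stood at 857, 723 and 913 CPM, which are counts scaled to a common library total summed over named genes. Markers of glutamatergic neurons all reached 1 CPM in every library (6 of 6), and so did those of GABAergic neurons (6 of 6) and astrocytes (8 of 8). Of the oligodendrocyte lineage markers 7 of 8 did so, of microglia 4 of 5, of endothelium 2 of 5, and of mural and meningeal cells 3 of 7. Of all symbols 37.9% did so. By mean CPM, without regard to length, the highest glutamatergic, GABAergic and astrocyte markers were Camk2a (2884 CPM), Gad2 (626 CPM) and Slc1a2 (985 CPM). The medians of these lists were 252, 55.5 and 19.9 CPM, and Gad2 and Slc1a2 lay above Slc17a7 (307 CPM). The labels do not say whether the pools were handled separately, so p-values measure the spread between these 3 samples, which may be technical. In pooled tissue of this kind, fewer cells of a type and less RNA per cell cannot be told apart.

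Counts were made per gene, and for both Trk receptors this joins transcripts that differ in what they encode. The coding sequences of Ntrk2 (ENSMUSG00000055254.15, mm10 chromosome 13, 58806569 to 59133970, plus strand) show this. The longest coding transcript has 821 codons and includes the kinase domain, and a truncated one has 476 codons and lacks it. They share their first 1393 coding bases and then part, at position 58932023 for the truncated one, whose last 38 coding bases with the stop codon are its own. The sequences below, from GENCODE M21 transcripts, give the 30 shared bases before that point in lower case and what follows in capitals.
Ntrk2, with kinase domain: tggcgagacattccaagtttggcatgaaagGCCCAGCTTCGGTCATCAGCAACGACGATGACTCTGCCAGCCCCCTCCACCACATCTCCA
Ntrk2, truncated: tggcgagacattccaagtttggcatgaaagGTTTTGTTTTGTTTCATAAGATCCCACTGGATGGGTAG
Ntrk3 (ENSMUSG00000059146.12, chromosome 7, 78175959 to 78738012, minus strand) has the same arrangement, with 1585 shared coding bases before a truncated transcript of 612 codons parts from the one of 864 codons.
Ntrk3, with kinase domain: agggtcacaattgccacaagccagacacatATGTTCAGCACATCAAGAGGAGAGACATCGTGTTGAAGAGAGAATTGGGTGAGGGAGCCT
Ntrk3, truncated: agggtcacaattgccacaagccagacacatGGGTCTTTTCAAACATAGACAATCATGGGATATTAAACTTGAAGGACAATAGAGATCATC
Over the complete coding transcripts of Ntrk2, 43.8% of exonic bases belonged only to the 2 that encode the kinase domain, 43.0% only to the 5 shorter ones and 13.2% to both kinds. The counts analysed here do not tell these apart.

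Bdnf lies on chromosome 2 (ENSMUSG00000048482.14, 109674700 to 109727007, plus strand) and is transcribed from many starts that share a coding exon. RefSeq promoter windows (GRCm38.p6, 250 bases before to 50 after a start) were found for 5 of the 8 genes, 7 of the windows for Bdnf. The calcium and cAMP response element of Bdnf, TCACGTCA, was searched for on both strands and was present in 1 of these 7 windows, at 38 bases before the start at 109692436. It was present in 0.441% of 32851 windows of the same length. Its last 5 bases are the reverse complement of the shorter motif TGACG, which among the Bdnf windows was found in this one, against 20.8% of all windows. The related element TGACGTCA was in none of the 7, against 1.79% of all windows, and the E-box CACGTG was also in none, against 7.15%. The 250 bases before that start, chr2:109692186-109692435 on the plus strand, are shown because this is the window that holds the element bound by the CREB family, whose messages are given further on. The element is in capitals.
Bdnf, start at 109692436: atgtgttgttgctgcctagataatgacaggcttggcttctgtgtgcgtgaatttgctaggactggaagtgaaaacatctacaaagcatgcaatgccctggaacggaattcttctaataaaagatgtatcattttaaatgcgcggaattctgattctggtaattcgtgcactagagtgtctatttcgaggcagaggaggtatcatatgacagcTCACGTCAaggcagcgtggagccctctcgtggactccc
A match is a description of the letters, and the counts do not say which start a Bdnf read came from.

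Of the 8 genes, 7 reached 1 CPM in every library, where 37.9% of all symbols did. The exception was Ntf3. Levels of different genes are compared per length, in TPM, which scales counts to gene length before depth, with the merged exons of each gene in GENCODE M21 as its length. In TPM the order was Sort1, Ntrk2, Bdnf, Sorcs1, Sorcs2, Ntrk3, Ngfr and Ntf3.

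**Figure D1:**
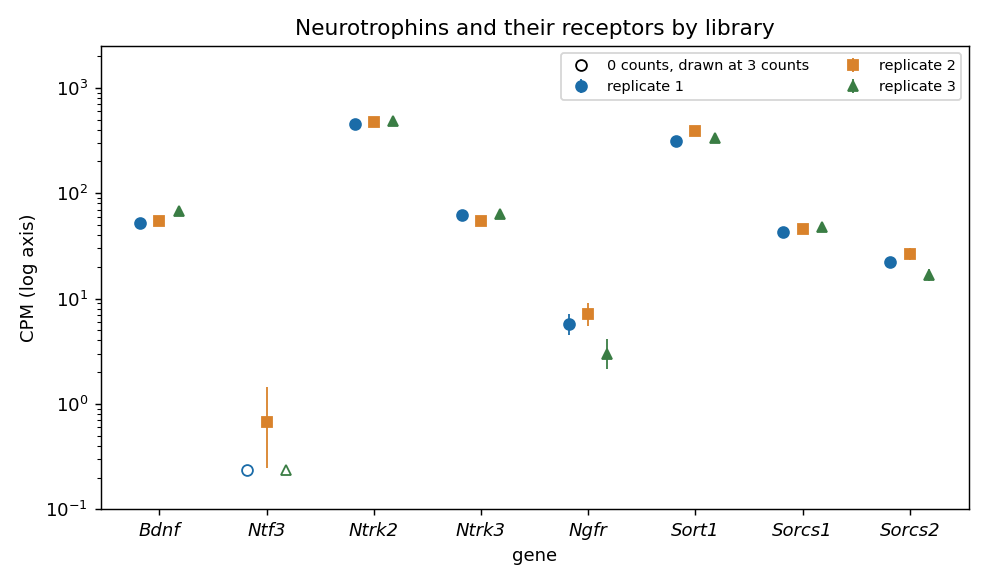
Level of each gene in CPM on a log axis, with 1 point for each of the 3 libraries and bars for the exact Poisson 95% interval, which covers counting error only and is often smaller than the point. Ntrk2 and Sort1 lie highest, at 312 CPM or more in every library, Ngfr is lowest in replicate 3, and the open symbols mark the libraries in which Ntf3 had 0 counts, drawn at 3 counts.

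Among the ligands, Bdnf was the message with substantial signal and Ntf3 was at the limit of detection. Bdnf stood at 52.3, 54.0 and 67.5 CPM in replicates 1, 2 and 3, or 57.9 ± 8.33 CPM (SD, n = 3). The highest library was replicate 3, and the exact Poisson intervals of replicates 1 and 2 overlapped. Per length Bdnf was at 45.6 ± 6.61 TPM, rank 4188 by TPM among genes with 1 CPM or more in every library.

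Ntf3 (ENSMUSG00000049107.13, chromosome 6, 126101412 to 126166910), the gene of NT-3, had 0 counts in replicates 1 and 3 and 6 counts in replicate 2. Those 6 counts equal 0.669 CPM, with an exact Poisson 95% interval of 0.246 to 1.46 CPM. Where no read was counted, 3 counts were taken as a floor, which is 0.238 CPM in replicate 1 and 0.237 CPM in replicate 3. The exact Poisson 95% interval of 0 counts reached higher, to 0.293 CPM in replicate 1 and 0.292 CPM in replicate 3. Detection of Ntf3 thus rested on a single library.

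With Ntf3 set at the floor of 3 counts, Bdnf was 60.6-fold higher per length in replicate 1 and 78.5-fold higher in replicate 3. These values take the Bdnf count without error, and the upper Poisson limit for Ntf3 would give lower ones. In replicate 2 Bdnf was 22.2-fold higher (exact binomial 95% interval of the count ratio 10.1 to 60.9). The direction was the same in 3 of 3 libraries. The mean difference in log2(TPM + 0.1) was 7.38 ± 2.59, and it was 5.02 with a pseudocount of 1 TPM, since it is set by the pseudocount where Ntf3 is at 0.

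Ntf5, which encodes NT-4, the other ligand of TrkB, had 0 counts in all 3 libraries.

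Among the Trk receptors, Ntrk2 was the most abundant message and Ntrk3 a lesser one. Ntrk2 stood at 452, 471 and 489 CPM in replicates 1, 2 and 3, or 470.5 ± 18.3 CPM, with rank 273 of all symbols by CPM, where Sort1 held rank 416. Its levels lay close together, with a coefficient of variation (SD over mean) of 3.89%, the smallest of the 8 genes. Per length it was at 119 ± 4.90 TPM, rank 1743 by TPM among genes with 1 CPM or more in every library.

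Ntrk3, the gene of the NT-3 receptor, stood at 61.6, 54.6 and 63.3 CPM, or 59.8 ± 4.65 CPM and 9.70 ± 0.741 TPM. In CPM it lay near Bdnf, but per length it was lower, because its merged exons span 30170 bases against 6217 for Bdnf. Ntrk2 exceeded Ntrk3 by 3.51, 3.74 and 3.58 on the log2(TPM + 0.1) scale in replicates 1, 2 and 3, a mean of 3.61 ± 0.12 or 12.2-fold.

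Astrocyte markers were present beside Ntrk2. All 8 of 8 reached 1 CPM in every library, and their summed level was 1338, 1492 and 1539 CPM in replicates 1, 2 and 3. Most of that sum came from Slc1a2, a glutamate transporter gene, with a mean of 985 CPM, and Aldoc, with 348 CPM. The other 6 markers had means between 5.68 CPM (Aldh1l1) and 50.9 CPM (Slc1a3), and the median of the list was 19.9 CPM. The truncated form of TrkB is known from astrocytes, and the part of astrocyte RNA in the Ntrk2 level was not tested.

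Receptors and ligands were also set against each other. Ntrk2 exceeded Bdnf by 1.47, 1.49 and 1.22 on the log2(TPM + 0.1) scale in replicates 1, 2 and 3, a mean of 1.39 ± 0.15 or 2.63-fold. The difference was 2.27 when lengths came only from GENCODE transcripts paired with a RefSeq mRNA, and 1.99 with the longest transcript of each gene. With Ntf3 set at the same floor, Ntrk3 exceeded this ligand gene per length by 14.7-fold in replicate 1 and 15.2-fold in replicate 3. In replicate 2 the ratio was 4.63 (exact binomial 95% interval 2.11 to 12.7). The mean difference was 5.17 ± 2.61 in log2(TPM + 0.1) and 2.90 with a pseudocount of 1 TPM.

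Ngfr (ENSMUSG00000000120.6, chromosome 11, 95568818 to 95587735, minus strand), the gene of the p75 receptor, was low. It had 72, 64 and 38 counts, or 5.72, 7.14 and 3.00 CPM in replicates 1, 2 and 3, a mean of 5.29 ± 2.10 CPM and 7.51 ± 2.99 TPM. Replicate 3 was the lowest library, and its exact Poisson 95% interval of 2.13 to 4.12 CPM did not reach those of replicate 1 (4.47 to 7.20) and replicate 2 (5.50 to 9.12). These intervals cover counting error only. Ntrk2 exceeded Ngfr by 4.06 ± 0.68 on the log2(TPM + 0.1) scale, or 16.7-fold, in 3 of 3 libraries. The difference was 5.19 with the longest transcript and 4.98 with RefSeq-paired transcripts.

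Cells known to carry p75 outside cortical excitatory neurons were checked by their markers. Basal forebrain cholinergic neurons express p75, and 2 of 6 of their markers reached 1 CPM in every library, where 37.9% of all symbols did. The summed level of these 6 markers was 8.26, 8.03 and 14.5 CPM in replicates 1, 2 and 3. The highest of that list by mean CPM was Slc5a7, the choline transporter gene, at 3.10, 4.13 and 6.25 CPM. The other to pass was Lhx8, at 4.05, 1.23 and 2.61 CPM. Chat, the gene of the acetylcholine-synthesizing enzyme, stood at 0.794, 2.57 and 2.21 CPM. Slc18a3, the vesicular acetylcholine transporter gene, had 0, 0 and 34 counts, and Gbx1 had 0 counts in all 3 libraries. Mural and meningeal markers summed to 26.7, 26.0 and 26.1 CPM, with Slc47a1 at 0 counts. Markers of Schwann cells and olfactory ensheathing glia reached 1 CPM in every library in 2 of 5 cases and summed to 22.5, 27.8 and 22.1 CPM. The part of these cells in the Ngfr level was not tested.

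The sortilin family gene Sort1 (ENSMUSG00000068747.14, chromosome 3, 108284082 to 108361511), which encodes sortilin, the partner of p75 for proneurotrophins and a sorting receptor for BDNF, stood at 312, 386 and 331 CPM. Its mean was 343 ± 38.3 CPM, and replicate 2 was the highest library. Per length Sort1 was at 222 ± 25.3 TPM, rank 843 by TPM among genes with 1 CPM or more in every library. It lay above Ntrk2 by 0.89 ± 0.15 on the log2(TPM + 0.1) scale, and the ranges of the 2 genes did not overlap. With the longest transcript as length the order of the 2 turned, with Ntrk2 at 199 ± 8.41 TPM and Sort1 at 185 ± 21.3 TPM. With RefSeq-paired transcripts Sort1 was at 168 ± 19.5 TPM and Ntrk2 at 157 ± 6.84 TPM, and under both of these lengths the ranges of the 2 genes overlapped.

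Sorcs1 (ENSMUSG00000043531.16, chromosome 19, 50143299 to 50678646), which encodes a sorting receptor of the same family, stood at 43.2, 46.1 and 47.8 CPM, or 45.7 ± 2.34 CPM and 26.5 ± 1.42 TPM. Sorcs2 (ENSMUSG00000029093.14, chromosome 5, 36017180 to 36398139), whose product partners p75 and TrkB, stood at 22.0, 26.6 and 16.8 CPM, or 21.8 ± 4.86 CPM and 12.1 ± 2.71 TPM. It was lowest in replicate 3, as Ngfr was. Sort1 exceeded Sorcs1 by 3.06 ± 0.14 on the log2(TPM + 0.1) scale, or 8.31-fold, and Sorcs1 exceeded Sorcs2 by 1.15 ± 0.37, or 2.21-fold, each in 3 of 3 libraries.

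The remaining family members were likewise present. Sorl1, whose product SorLA sorts several neuronal receptors, stood at 102, 117 and 89.5 CPM, or 44.4 ± 5.96 TPM. Sorcs3 stood at 27.3, 42.8 and 23.0 CPM, or 21.3 ± 7.20 TPM, highest in replicate 2. Of the summed TPM of the 5 family genes, Sort1 made up 68.0% ± 1.73, Sorl1 13.6% ± 0.96, Sorcs1 8.19% ± 0.94, Sorcs3 6.44% ± 1.39 and Sorcs2 3.70% ± 0.55.

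Each of the 7 contrasts between the 8 genes had 1 direction in 3 of 3 libraries, and the two-sided exact permutation test by sign flips gave p = 0.25 for each (adjusted p = 0.25 over 7 contrasts). This is the smallest p that 3 libraries allow. Between neighbours in the order of levels, Sorcs2 and Ntrk3 differed by 0.30 ± 0.43 and Ntrk3 and Ngfr by 0.45 ± 0.73 on the log2(TPM + 0.1) scale. These 2 differences were smaller than their spread, each with its direction in 2 of 3 libraries and with overlapping ranges. Bdnf and Sorcs1 differed by 0.77 ± 0.14, with ranges that did not overlap.

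**Figure D2:**
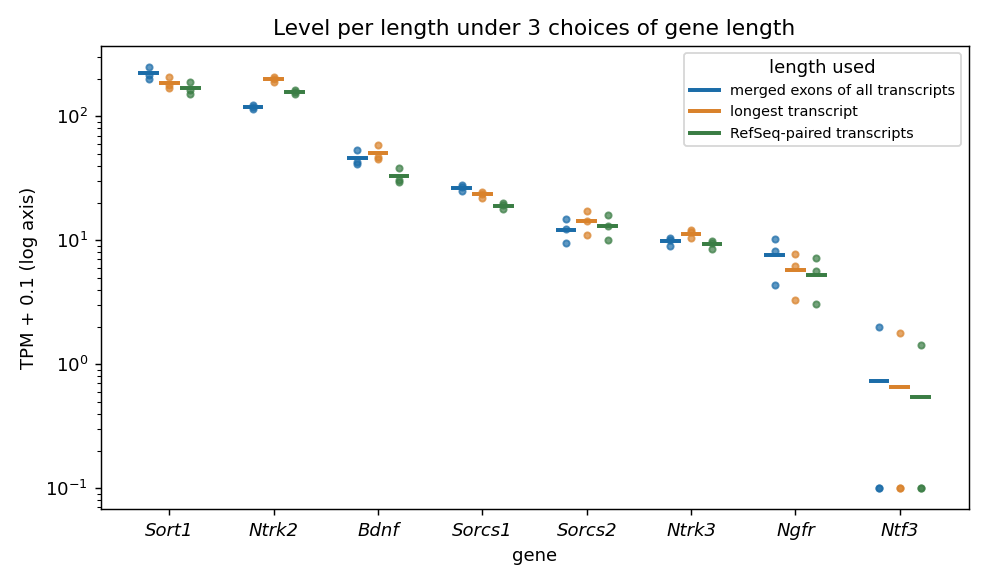
TPM plus 0.1 on a log axis for the 8 genes, in their order with merged exons, under 3 choices of gene length, with 1 point for each of the 3 libraries and a bar at the mean. Sort1 and Ntrk2 change places with the longest transcript, while the genes from Bdnf at 45.6 TPM down to Ntf3 keep their order.

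The next question was whether any of these genes varied between libraries more than genes of like abundance. In edgeR, an intercept-only negative binomial fit with trended dispersion called 36 of 14774 genes at an adjusted p of 0.05, or 0.244%, and 7.22% at an unadjusted p of 0.05. Of the 7 genes that could be tested, 0 were called, and 0 had an unadjusted p under 0.05. The alternatives also called 0 of the 7: 7.43% of genes were called with a common dispersion, 0.25% with DESeq2 size factors, 0.141% without a count filter and 0.0812% in a limma variance test. Without replicates 1, 2 and 3 in turn, 0.112%, 0.11% and 0.148% of genes were called, and again 0 of the 7. Ntf3 had too few counts to pass the filter.

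Ngfr had the widest spread of the 7, with a coefficient of variation of 39.7%, and its adjusted p in edgeR was 0.99999, where the fitted variation of genes at its level was 38.3%. Sorcs2 followed with 22.3%, Bdnf with 14.4% and Sort1 with 11.2%. Their adjusted p in edgeR was also 0.99999. Ntrk3, Sorcs1 and Ntrk2 varied by 7.78%, 5.11% and 3.89%. Over the 7 alternatives run, the lowest adjusted p of these 7 genes, in edgeR or limma, was 0.818, for Ngfr with a common dispersion. Ntf3 could be tested only without the count filter (adjusted p = 0.910 in edgeR).

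**Figure D3:**
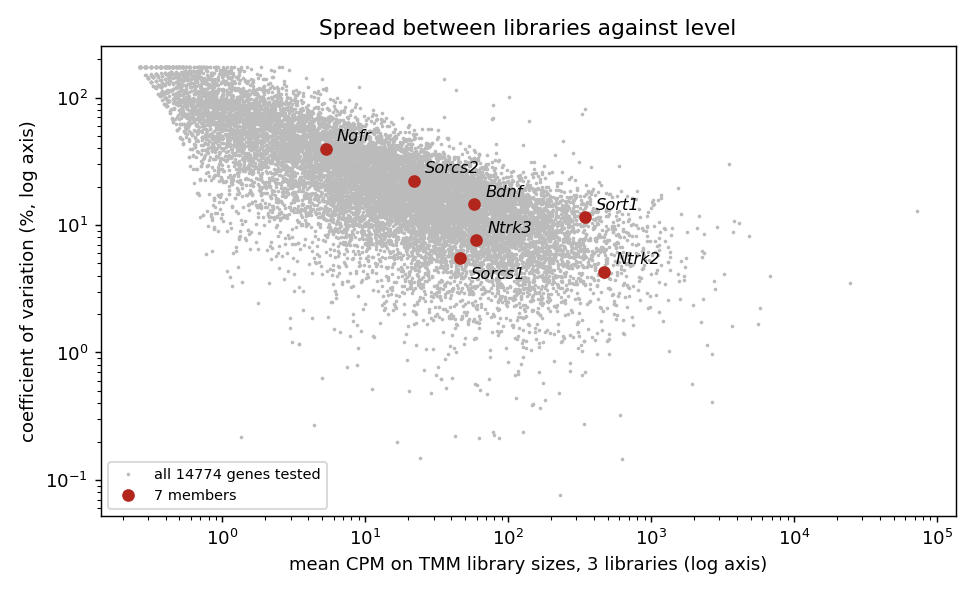
Coefficient of variation in percent against mean CPM on TMM-normalized library sizes, both on log axes, for 14774 genes in grey and 7 of the 8 genes in red. Ngfr, at about 5.29 CPM, has the widest spread of the 7 and Ntrk2 the narrowest, and all 7 lie inside the cloud of other genes.

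Other genes of the pathway were described from 9 lists. Of 81 listed genes found in the tables, 73 (90.1%) reached 1 CPM in every library, against 37.9% of all symbols, and their median level was 43.4 CPM, against 8.45 CPM over all genes with a count. The lists were chosen as genes of neuronal signalling, so nothing particular to them is read from these shares. In the counts for each list below, detected means 1 CPM or more in every library, which 37.9% of all symbols reached.

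**Figure D4:**
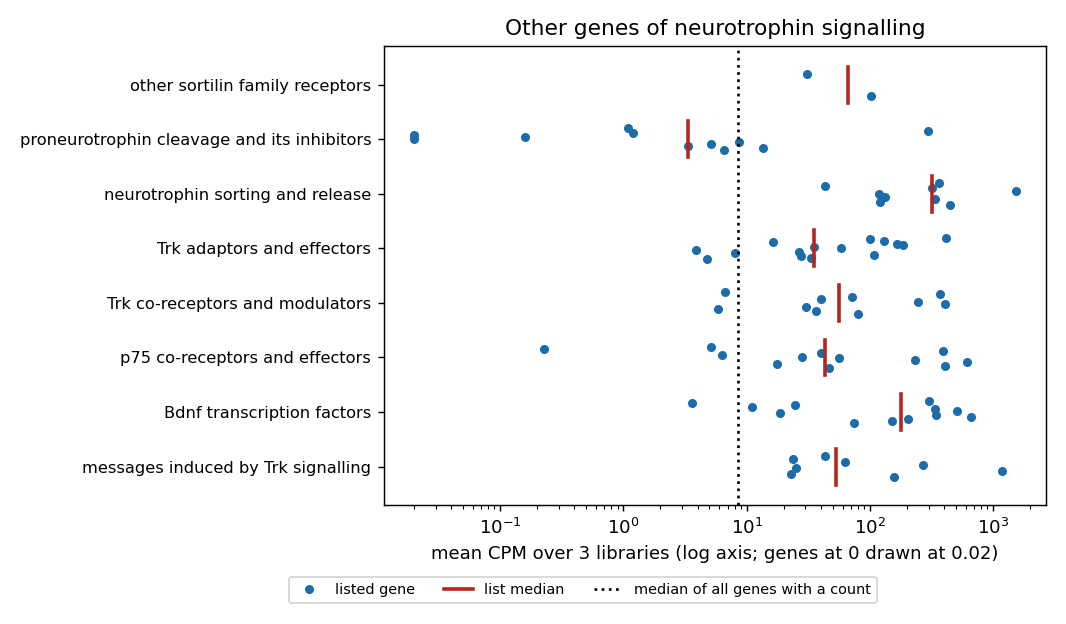
Mean CPM over 3 libraries on a log axis for each gene of 8 of the 9 lists, with the list median as a red bar and the median of all genes with a count, 8.45 CPM, as a dotted line. The sorting and release list lies highest, with a median of 319 CPM, and genes with 0 counts are drawn at 0.02.

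Of 11 genes of proneurotrophin cleavage and its inhibitors, 6 reached 1 CPM in every library, and the median of the list was 3.36 CPM. Pcsk5, a proprotein convertase gene, had the highest mean CPM of the proteases, with 16.9, 13.2 and 10.5 CPM. Furin, which cuts precursors inside the cell, stood at 4.13, 6.92 and 8.62 CPM, and Plat, the tissue plasminogen activator, at 8.18, 7.14 and 10.6 CPM. Per length Plat stood at 6.77 ± 1.39 TPM, the convertase gene Pcsk7 at 4.87 ± 3.34 TPM and Pcsk5 at 4.58 ± 1.08 TPM. Plg, the gene of plasminogen, had 0 counts, as did Mmp7. The highest was Serpini1, which encodes neuroserpin, an inhibitor of tissue plasminogen activator, at 357, 278 and 256 CPM, or 199 ± 35.1 TPM.

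Genes of neurotrophin sorting and release were all detected, 9 of 9, with a median of 319 CPM. Kif1a, a motor of dense-core vesicles, was highest in CPM at 1356, 1392 and 1884, and Syt6 lowest at 43.4, 49.0 and 37.9 CPM. Cpe, which sorts BDNF into regulated vesicles, stood at 451, 398 and 494 CPM, or 839 ± 89.5 TPM. Hap1, which binds the BDNF precursor for transport, stood at 104, 128 and 165 CPM. Kif1a and Hap1 had adjusted p-values of 0.632 and 0.554 in edgeR and were not called. They were the 2 of 9 with an unadjusted p under 0.05, where 7.22% of all genes had one.

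Trk adaptors and effectors were detected in 15 of 15 cases, with a median of 35.1 CPM. Kidins220, a scaffold bound by Trk receptors and p75, stood at 421, 421 and 413 CPM, or 236 ± 2.45 TPM. Of the adaptors that bind active Trk receptors, Frs2 stood at 60.0 ± 4.53 TPM, Shc3 at 29.7 ± 0.685 TPM and Shc1 at 4.13 ± 1.05 TPM. Plcg1, the phospholipase that TrkB activates, stood at 16.5 ± 0.611 CPM, and Sh2b2 was the lowest of the list at 3.87 ± 0.657 CPM. None of the 15 was called as varying in edgeR, and 0 had an unadjusted p under 0.05, against 7.22% of all genes.

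Co-receptors and modulators of Trk signalling were detected in 10 of 10 cases. Slitrk5, a co-receptor of TrkB, stood at 75.9, 82.0 and 83.4 CPM, or 74.8 ± 3.89 TPM, and Lrig1 was lowest of the list at 5.83 ± 0.222 CPM. Lingo1, which is also a co-receptor of p75, was highest at 348, 446 and 430 CPM, or 423 ± 55.3 TPM. Adora2a, the adenosine receptor gene used as a striatal marker, stood at 3.73, 3.79 and 12.4 CPM, with the highest value in replicate 3 (adjusted p = 0.516 in edgeR). None of the 10 was called, and Adora2a was the 1 of 10 with an unadjusted p under 0.05, where 7.22% of all genes had one.

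Partners and effectors of p75 were detected in 11 of 12 cases at 1 CPM in every library, with a median of 43.4 CPM. Per length, 10 of the 12 had a higher mean TPM than Ngfr itself, and Zfp110 (6.15 TPM) and Nradd (0.614 TPM) had a lower one. The Nogo receptor gene Rtn4r stood at 42.9, 51.8 and 45.3 CPM, or 118 ± 11.9 TPM, against 7.51 TPM for Ngfr. Maged1, an adaptor of p75, was highest in CPM at 646, 614 and 589, or 693 ± 30.5 TPM. Nradd, a p75-like receptor gene, was lowest, with 0, 4 and 3 counts.

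Factors that bind or control the Bdnf promoters were detected in 12 of 12 cases, with a median of 178 CPM. Creb1, whose product binds the response element shown earlier, stood at 72.1, 70.9 and 80.6 CPM, or 26.5 ± 1.90 TPM, and its coactivator gene Crtc1 at 130, 162 and 163 CPM. Mef2c was highest in CPM at 729, 667 and 605, or 208 ± 18.9 TPM. Per length Bhlhe40, Mef2d and Arnt2 lay above it, at 316, 279 and 213 TPM. Rest, a repressor of neuronal genes, was lowest at 2.54, 4.13 and 4.11 CPM. Npas4, an activity-induced factor, stood at 23.7, 17.0 and 15.5 CPM, with its partner gene Arnt2 at 326, 333 and 346 CPM. None of the 12 was called as varying, and 0 had an unadjusted p under 0.05 in edgeR, against 7.22% of all genes.

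Messages that Trk signalling can induce were detected in 8 of 8 cases. In edgeR 1 of the 8 was called as varying between libraries, where 0.244% of all genes were called. Egr2, an activity-induced zinc finger factor, stood at 29.4, 36.5 and 9.01 CPM, low in replicate 3 (adjusted p = 0.0126 in edgeR). Egr2 was no longer called in limma (adjusted p = 0.0988), nor in edgeR with one dispersion for all genes (0.0743), without replicate 2 (0.135) or without replicate 3 (0.99999). Fos stood at 32.9, 19.0 and 16.5 CPM (adjusted p = 0.689 in edgeR), Arc at 184, 165 and 124 CPM and Egr1 at 1293, 1291 and 956 CPM. With Dusp6 at 48.6, 50.1 and 31.5 CPM, 5 of the 8 were lowest in replicate 3. Vgf, the gene of a secreted peptide precursor that neurotrophins induce, stood at 51.8, 61.6 and 75.8 CPM, and Homer1 at 274, 254 and 284 CPM, and with Nptx2 these 3 were highest in replicate 3. Egr2 and Fos were the 2 of 8 with an unadjusted p under 0.05 in edgeR, where 7.22% of all genes had one. Apart from Egr2 none was called, and none of these orders was tested or set against the orders of all genes.

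For each gene above 1 CPM on average, the 2 genes nearest in level were found by the largest difference in log2(CPM + 0.5) over the 3 libraries. For Bdnf the nearest was Ccdc85a (0.03), and 19 genes lay within 0.1 of it. For Ntrk2 the nearest 2 were Cep170b (0.09) and Trim37 (0.10), for Ntrk3 Acyp1 and Rer1 (each 0.03), and for Ngfr Zfp599 (0.07) and Tmtc2 (0.14). For Sort1 they were Ctxn1 (0.04) and Dlg4 (0.08), for Sorcs1 Atp5s and Ermp1 (each 0.04), and for Sorcs2 Mepce (0.03) and Ugdh (0.05). With 3 libraries of 1 group this measures a like level and little else.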

How the data were processed

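For each immunopurified library, the deposited file lists gene symbols with raw read counts. The submitters' processing notes list STAR 2.0.0e, HTSeq and mm10. The counting annotation and strand setting were not given in the sources used here. Totals and tests leave out the lines without a gene, which took up 27.8% ± 0.56 of counts. Overlapping genes could hide reads, and 14.4% of the exonic bases of Bdnf are shared with another annotated gene. The genes that overlap Bdnf, Sort1 and Sorcs1 are not among the symbols of the tables under their GENCODE names. The counting annotation may name them otherwise, so whether reads were lost was not tested.

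CPM used the total of named genes. TPM used merged exon lengths from GENCODE M21 (mm10), matched by symbol for 90.1% of symbols with a count, and log2 values used pseudocounts of 0.1 TPM or 0.5 CPM. With the longest transcript, or with transcripts paired with a RefSeq mRNA, as alternatives, lengths change most for Ntrk2 (19292, 8744 and 10126 bases). Differences between genes within a library were tested with exact sign-flip permutation. Variation between libraries was tested over all genes that had 10 counts or more in any library, in edgeR 4.0.16 (TMM, trended dispersion, deviance against chi-square, Benjamini-Hochberg), with limma 3.58.1 and DESeq2 1.42.0 size factors as alternatives. The script was tested on simulated data, with 1 library moved for genes of 50 counts or more on average. Of 100 genes moved 4-fold, edgeR called 76 and limma 65, and both called 100 of 100 moved 16-fold. False calls were 13 in edgeR and 0 in limma. Smaller moves were not simulated, and Ngfr, the widest of the 7, differed 2.38-fold between libraries. The lack of calls thus does not show that the 7 genes were steady. Scripts ran in R 4.3.3 and in Python 3.11.15 (with scipy 1.17.1, pandas 2.3.3, numpy 2.4.6). Intervals are 95% and cover counting error only, not the spread between libraries. They treat reads as independent molecules, which reads need not be.

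The 8 genes and the gene lists were chosen with earlier results of these data known. The rule named all 8 genes, the highest and lowest gene of each list by mean CPM, any listed gene called as varying, and the 2 genes nearest in level to each of the 8 that averaged 1 CPM or more. Other listed genes in the text were picked after their values were seen. The list of p75 effectors held 1 gene under 2 names, of which the tables use Ngfrap1. Some listed and neighbouring genes are not reported here.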

Additional observations from a re-analysis of the deposited data

How the results depend on the processing

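The 7 contrasts kept their direction under each alternative run. With a pseudocount of 1 TPM, Bdnf minus Ntf3 was 5.02 and Ntrk3 minus Ntf3 was 2.90 log2 units. With the longest transcript, Ntrk2 exceeded Ntrk3 by 4.14, Ngfr by 5.19 and Bdnf by 1.99 log2 units, and Sorcs1 exceeded Sorcs2 by 0.74. With RefSeq-paired transcripts, an alternative chosen after seeing the data, these were 4.08, 4.98, 2.27 and 0.57. Without length, in CPM, Ntrk2 exceeded Ntrk3 by 2.98, Ngfr by 6.53 and Bdnf by 3.03, Ntrk3 exceeded Ntf3 by 8.24 and Sort1 exceeded Sorcs1 by 2.90. Leaving out each replicate moved Bdnf minus Ntf3 between 6.54 and 8.87 and Ntrk3 minus Ntf3 between 4.40 and 6.67, with the highest values without replicate 2, the library that holds all Ntf3 counts. The count of varying genes was 36 in edgeR, 1097 with a common dispersion, 12 in the limma variance test and 16 to 21 with each replicate left out, beside 26 without a count filter and 37 with DESeq2 size factors. None of the 8 genes that could be tested was called under any of these. With totals that leave out Rn45s, all 8 genes stood higher. Ntrk2, Ntrk3 and Sorcs1 were then at 507, 64.5 and 49.3 CPM. Sort1, Bdnf, Sorcs2, Ngfr and Ntf3 were at 370, 62.5, 23.5, 5.69 and 0.240 CPM. No paired analysis was possible because there is 1 group. Depth limits Ntf3, with at most 6 counts in any library.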
